A study of Mus musculus with 19 samples.

Results

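Cytokines and chemokines are secreted or membrane-bound proteins through which cells signal to neighbours and to migrating blood cells. The genes described here are all those whose probe annotation gives a symbol of the Ccl, Cxcl, Cx3cl, Il or Tnfsf series followed by digits and at most 1 letter, without Cxcl12 and Il7. Where several probe sets carried the single symbol of a gene, the brightest on average over the 18 neonatal arrays was used. The rule found 68 of 18193 genes, of which 65 encode ligands. The other 3, Il7r, Il9r and Il21r, encode receptors whose symbols the pattern also caught, and they are counted among the 68 but described apart. Of the 68, 27 interleukins, 18 CC chemokines, 12 CXC chemokines, 7 tumour necrosis factor superfamily ligands and the fractalkine gene Cx3cl1 made up the ligands.

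Arrays were made from skeletal progenitor cells sorted from the fore and hind limbs of mice at postnatal day 3. The labels call the mice wild-type, the growth protocol calls them GFP-labelled, and each sample came from a pooled litter, so no array stands for a single animal. All cells were negative for CD45, Ter119 and Tie2 and positive for AlphaV integrin. The antigens Thy, 6C3 and CD105 then gave 6 populations with 3 arrays each. Cells with neither Thy nor 6C3, cells with Thy alone and cells with 6C3 alone were each sorted into a CD105+ and a CD105- population, and names such as Thy+6C3-CD105- give all 3 antigens. A further array of adult Thy+6C3+CD105+ cells has no replicate and enters no test. The comparisons ask how expression differs when 1 sorted antigen changes and the other antigens are held, and each such step is the positive minus the negative population.

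Levels are log2 values after quantile normalization, on which 1 unit is a 2-fold difference, and array values are given in the order of replicates 1, 2 and 3. Log2 changes carry the SE of the fit, means carry the SD of 3 arrays, and adjusted p values come from limma with Benjamini-Hochberg adjustment over all 18193 genes. Deposited medians lay between 5.60 and 6.02, the number of arrays limits the precision, and bulk arrays cannot tell fewer expressing cells from less RNA per cell. Replicate 3 of Thy+6C3-CD105- stands apart. Eng, which encodes CD105, read 8.58 on it against 7.51 and 7.61 on its replicates, and 8.34 to 8.75 in Thy+6C3-CD105+ cells, so it goes against its CD105- label in this gene. With all arrays, however, Eng passed in none of the CD105 steps. Its RNA therefore does not by itself bear out the CD105 gates. For replicates 2 and 3 of Thy-6C3+CD105- the title says Thy+ and the population field Thy-, but Thy1 read 5.78 and 5.95 on them against 9.99 to 10.47 in the Thy+ populations. Where leaving out 1 of these arrays ended the call of a member, this is said beside it. The cartilage markers of the chondrocyte list stood at an array mean of 12.52 to 12.70 in the Thy-6C3- populations and 9.46 to 10.18 in the Thy+ populations, and at least 11 of its 12 genes were above background in every population.

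In skeletal tissue, ligands of these families are known for directing the formation of osteoclasts, the entry of blood cells and the response of connective tissue to damage. Most chemokines act through receptors on leukocytes, and several are produced by stromal cells only after a stimulus that activates NF-kappaB or interferon signalling. Interleukins 33 and 18 belong to the interleukin 1 family and are stored in cells as alarm signals. The tumour necrosis factor superfamily includes Tnfsf11, also called RANKL, the main osteoclast differentiation factor.

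Few of these genes had a signal above the array background in any limb population. As a background, the 95th percentile over 71 olfactory and vomeronasal receptor genes was taken on each array, which lay between 5.48 and 5.96. A gene counted as above background in a population when all 3 arrays exceeded it. By this measure 24 of the 68 members (35.3%) were above background in at least 1 population, against 66.6% of all genes. Likewise 10 members (14.7%) were above it in all 6 populations, against 51.7% of all genes. The remaining 44 members (64.7%), including all 3 receptor genes, were above it in none. With the 99th percentile the count was 15, and with the requirement to exceed the median gene of the array it was 12.

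**Figure D1:**
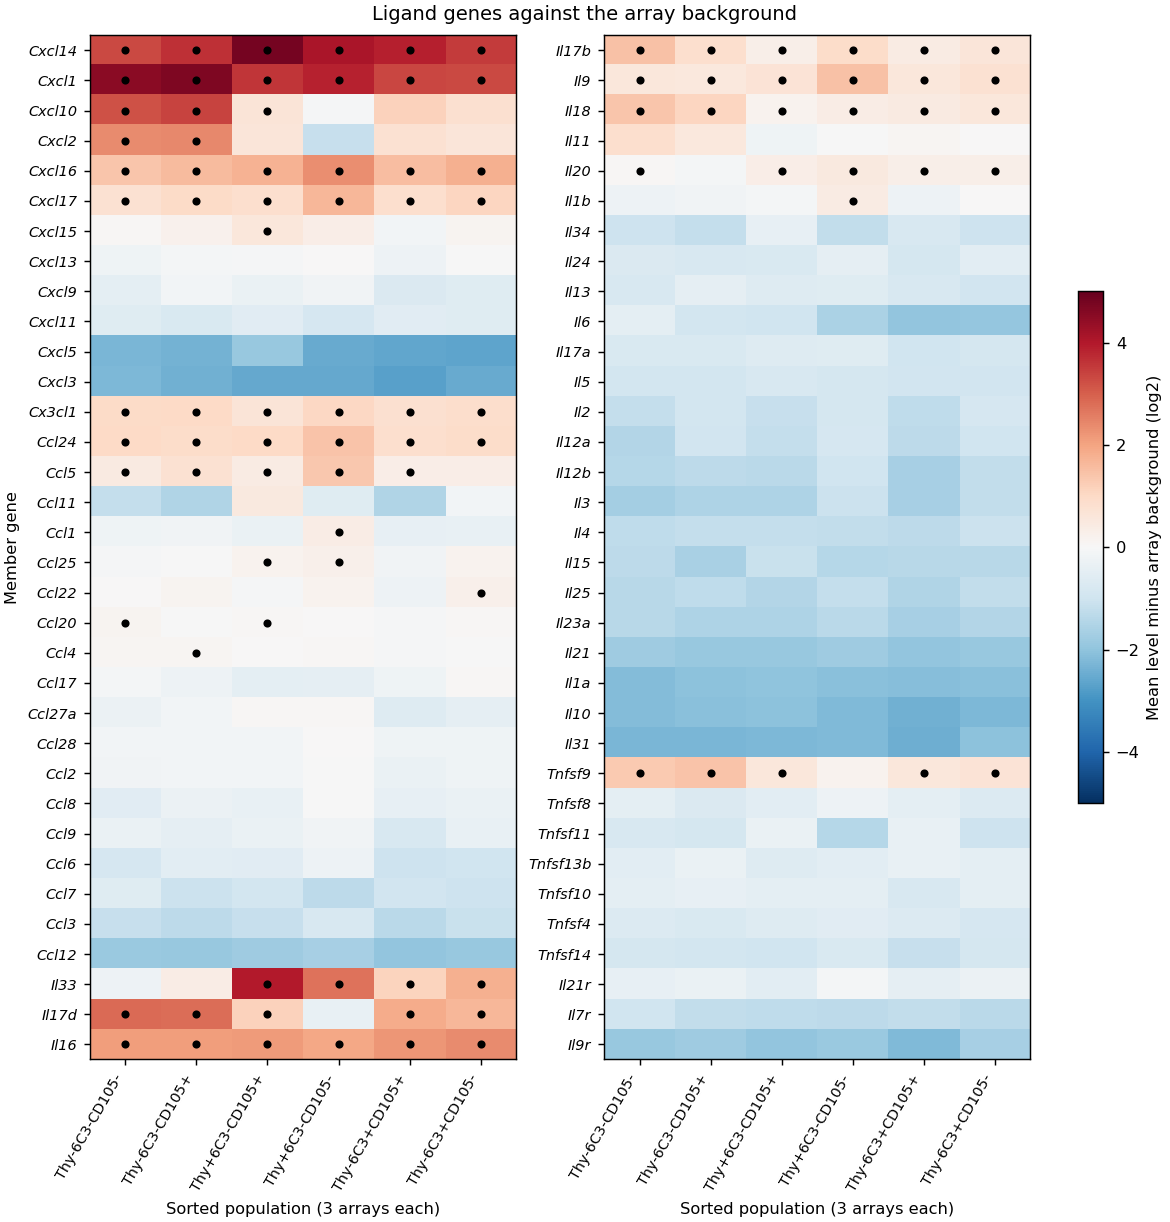
Mean level minus array background (colour, log2 units) for the 68 members (rows) in the 6 sorted populations (columns, 3 arrays each); a dot marks members above background on all 3 arrays. Dots cover all 6 populations in 10 rows, among them Cxcl14, Cxcl1, Cxcl16 and Il16, and 44 rows have none.

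The 10 genes above background everywhere were Cxcl1, Cxcl14, Cxcl16, Cxcl17, Cx3cl1, Ccl24, Il9, Il16, Il17b and Il18. Il17d, Tnfsf9, Ccl5 and Il20 were above it in 5 populations, Il33 in 4, Cxcl10 in 3, and Cxcl2, Ccl20 and Ccl25 in 2. Ccl1, Ccl4, Ccl22, Cxcl15 and Il1b were above it in 1 population each. By family this was 7 of 18 CC chemokines, 7 of 12 CXC chemokines, 8 of 27 interleukins and 1 of 7 tumour necrosis factor superfamily ligands, beside Cx3cl1. Of the 10 genes above background everywhere, Cxcl1, Cxcl14, Cxcl16 and Il16 also exceeded the 99th percentile in all 6 populations. Cxcl17 did so in 5, Ccl24 in 2, and Cx3cl1, Il9, Il17b and Il18 in 1 each.

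Several ligands known from bone and marrow were not above background in any population. Tnfsf11 ranged from 3.73 to 5.79 over the 18 neonatal arrays. Il6 and Il11, whose receptors share the gp130 subunit, ranged from 3.64 to 5.96 and from 5.34 to 7.60. Il34, a ligand of the macrophage colony-stimulating factor receptor, ranged from 4.20 to 5.59. The monocyte chemokines Ccl2 and Ccl7 lay between 5.31 and 6.12 and between 4.18 and 5.96, and the B-cell chemokine Cxcl13 lay between 5.36 and 5.91. Il15, Il1a, Tnfsf10 (TRAIL) and Tnfsf13b (BAFF) stayed at or under 4.86, 4.07, 5.52 and 5.66. A level under this background shows only that these probe sets did not stand out from those of genes with no known use in the limb, not that the RNA was absent. Il11 exceeded it on some arrays. Thy-6C3-CD105- replicate 3 read 7.60, over the background of 5.68 there, while replicate 2 of that population read 5.70.

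Over the 6 populations, 7 members (10.3%) passed limma's moderated F-test at an adjusted p under 0.05, against 10.1% of all genes. They were Il33 (adjusted p = 1.96e-05), Il17d (0.00148), Il18 (0.00371), Tnfsf9 (0.00581), Ccl11 (0.00699), Cxcl5 (0.0100) and Ccl5 (0.0304). Their share among the members was close to that among all genes. Without replicate 2 of Thy-6C3-CD105- 11 passed, and 15 with array weights, which let arrays farther from their group count for less. The shares of all genes in these fits are not given here. Of the 7, Ccl11 and Cxcl5 were not above background in any population.

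**Figure D2:**
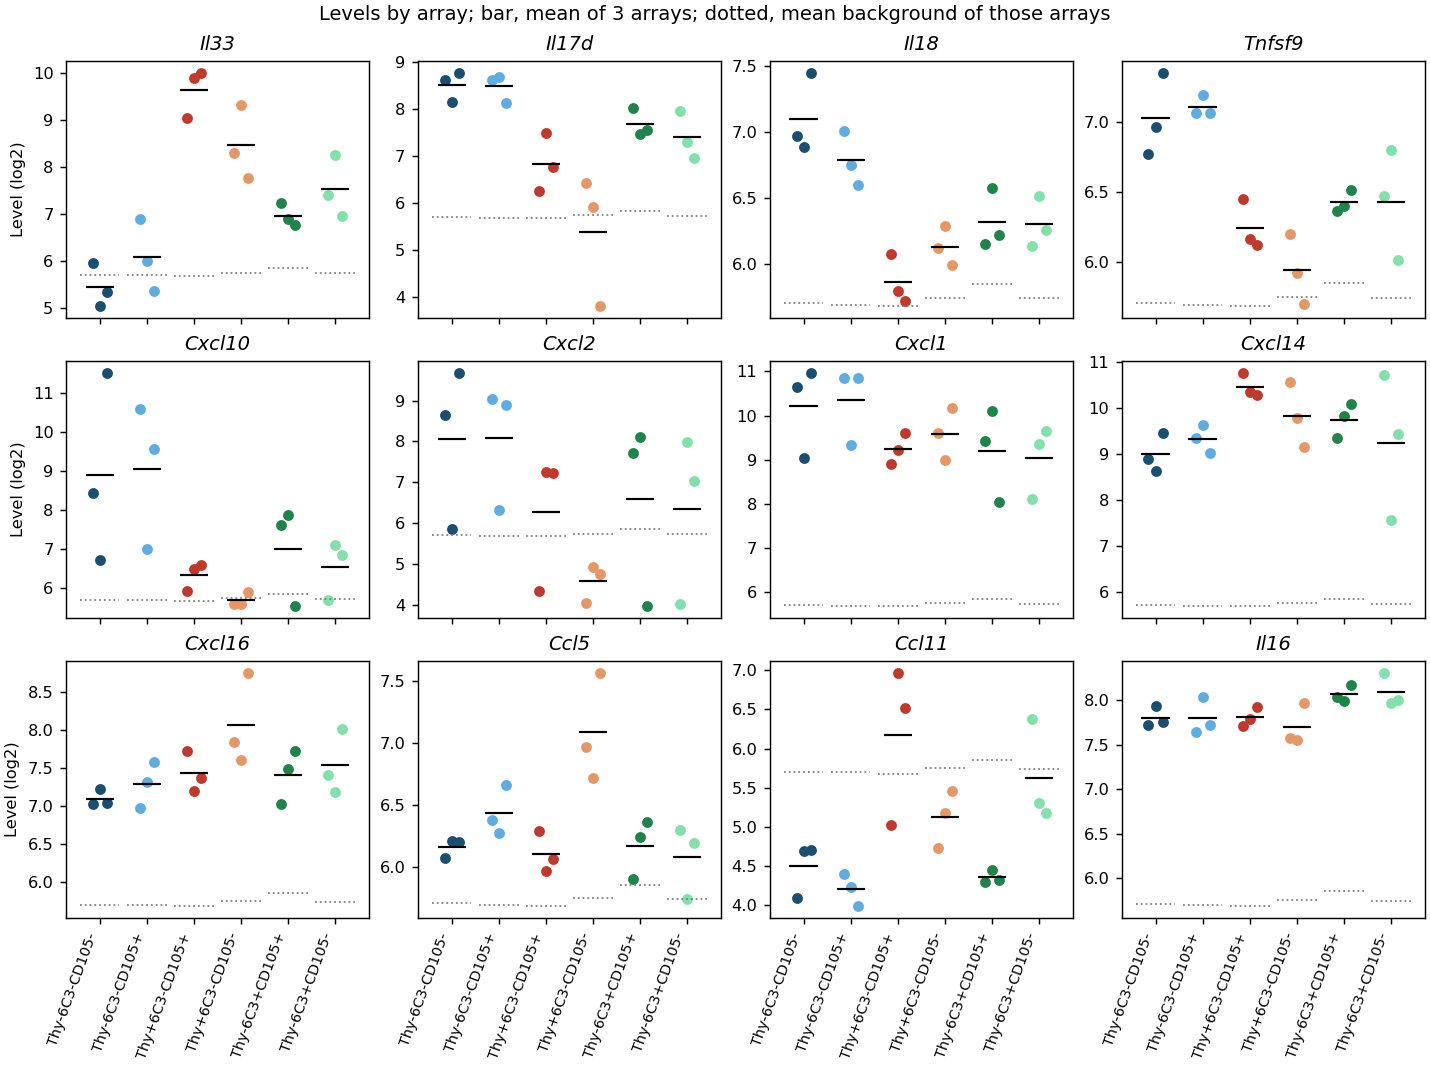
Level (log2) of 12 members on each of the 18 neonatal arrays (points, coloured by population), with the mean of 3 arrays as a bar and the mean background as a dotted line; each panel has its own vertical scale. Il33 is highest on the Thy+ arrays, Il17d, Il18 and Tnfsf9 are highest on the Thy-6C3- arrays, and Cxcl10 and Cxcl2 spread over several units within the Thy-6C3- populations.

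Il33, the alarm cytokine that signals through the receptor ST2, had the widest range of population means, 4.20 units. It read 9.04, 9.88 and 10.00 in Thy+6C3-CD105+ cells and 8.30, 9.32 and 7.76 in Thy+6C3-CD105- cells. In Thy-6C3+CD105+ cells the values were 7.22, 6.89 and 6.76, and in Thy-6C3+CD105- cells 7.39, 8.25 and 6.95. The Thy-6C3- populations read 6.88, 6.00 and 5.36 with CD105 and 5.95, 5.03 and 5.33 without it, and were not above background on every array. All Thy+ arrays thus lay above every Thy-6C3- array, while the 6C3+ arrays overlapped the lowest Thy+ and the highest Thy-6C3- arrays. The Thy step was +3.56 ± 0.44 among CD105+ cells (adjusted p = 3.35e-05) and +3.02 ± 0.44 among CD105- cells (adjusted p = 0.000177), and the difference between these steps, 0.54 ± 0.62, did not pass (adjusted p = 0.66). In the 6C3 step Il33 rose by 2.09 ± 0.44 among CD105- cells (adjusted p = 0.0113). Among CD105+ cells that step was 0.88 ± 0.44 (adjusted p = 0.699), and the difference between the 6C3 steps, -1.21 ± 0.62, did not pass either (adjusted p = 0.999).

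Both Thy steps of Il33 kept their call in every alternative that tested them. The fit within the high poly-A control set, described below for Il18, could not hold the step among CD105- cells. The call in the 6C3 step was lost without replicate 2 of Thy-6C3-CD105- or of Thy-6C3+CD105-. With groups taken from the titles, which leave only replicate 1 in Thy-6C3+CD105-, the change was 1.95. Genes of the pericyte and smooth muscle list rose mostly in the Thy step among CD105+ cells. Their median change was 1.86 there and 0.26 in the Thy step among CD105- cells. All 12 were above background in Thy+6C3-CD105+ cells, where their array mean was 9.94 to 10.12 against 8.07 to 8.42 in Thy-6C3-CD105+ cells, and 10 of 12 rose and 1 fell in that Thy step. In the Thy step among CD105- cells 4 of the 12 rose and 2 fell, at array means of 8.34 to 8.48 against 8.07 to 8.23. Of the endothelial list 4 of 12 genes rose in the first of these steps and 2 in the other, and none fell. Tek, which encodes Tie2, the antigen the sort selected against, rose in both, by 1.11 ± 0.17 among CD105+ cells (adjusted p = 0.000349) and 1.51 ± 0.17 among CD105- cells (adjusted p = 1.45e-05), and it was above background on all 6 Thy+ arrays. Sox18, an endothelial transcription factor, rose in both by 1.43 ± 0.32 and 1.57 ± 0.32. Esam, an adhesion molecule, and Flt1, a VEGF receptor, rose among CD105+ cells by 2.32 ± 0.18 and 1.05 ± 0.24. The array mean of the list was 6.12 to 6.36 in Thy+6C3-CD105+ cells against 5.55 to 6.01 in Thy-6C3-CD105+ cells. In Thy+6C3-CD105- cells it was 5.99 to 6.18 against 5.42 to 5.69 in Thy-6C3-CD105- cells. The defining endothelial gene Cdh5 was below background on all Thy+ arrays, at no more than 5.42, and Pecam1, at 4.28 to 5.60, on all but Thy+6C3-CD105- replicate 2. Of the tendon and fibrous list 6 of 10 genes rose and 1 fell in each Thy step. Of all genes 4.03% rose and 2.63% fell in the Thy step among CD105+ cells, and 10.5% and 7.45% among CD105- cells. The part of these cell types in the results for Il33 and Ccl11 was not tested.

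Il17d, a member of the interleukin 17 family, had the opposite pattern. Thy-6C3-CD105- cells read 8.62, 8.16 and 8.78 and Thy-6C3-CD105+ cells read 8.63, 8.70 and 8.14. Values in Thy+6C3-CD105+ cells were 6.26, 7.50 and 6.77, and in Thy+6C3-CD105- cells 6.44, 5.92 and 3.81. The 6C3+ arrays lay from 6.96 to 8.03, below every Thy-6C3- array. Il17d fell by 3.13 ± 0.49 in the Thy step of CD105- cells (adjusted p = 0.000381), and still fell by 2.34 without the lowest array, Thy+6C3-CD105- replicate 3 (adjusted p = 0.000351). Among CD105+ cells the groups did not overlap, but the step of -1.64 ± 0.49 just missed the threshold (adjusted p = 0.0543). The difference between these steps was 1.48 ± 0.70 (adjusted p = 0.296). A second probe set of Il17d lay below background at population means of 4.34 to 4.94 and did not follow this pattern, at -0.07 ± 0.23 in the Thy step of CD105- cells, so the result rests on 1 probe set.

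Il18 and Tnfsf9 were also lower in Thy+ cells. Il18 read 6.97, 6.89 and 7.45 in Thy-6C3-CD105- and 7.01, 6.75 and 6.60 in Thy-6C3-CD105+ cells, against 6.12, 6.29 and 5.99 in Thy+6C3-CD105- and 6.08, 5.80 and 5.72 in Thy+6C3-CD105+ cells. No Thy+ array reached the lowest Thy-6C3- array. Il18 fell by 0.97 ± 0.21 in the Thy step of CD105- cells (adjusted p = 0.00442) and by 0.92 ± 0.21 among CD105+ cells (adjusted p = 0.009). The first of these calls was lost with only the compared populations in the fit. The poly-A controls, probe sets for RNAs added during sample preparation, split the arrays into 11 with a high and 7 with a low mean, and within the high set the change among CD105+ cells was -1.04 (adjusted p = 0.0864). Il18 also fell by 0.80 ± 0.21 in the 6C3 step among CD105- cells (adjusted p = 0.0447), to 6.14, 6.52 and 6.26, a call lost in 15 of 18 fits that left out 1 array. With groups from the titles, which leave only replicate 1 in Thy-6C3+CD105-, the change was -0.97. The Thy call among CD105+ cells was lost without replicate 1 of Thy-6C3-CD105+ or replicate 3 of Thy+6C3-CD105+.

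Tnfsf9 encodes the ligand of the T-cell costimulatory receptor 4-1BB. It read 6.77, 6.96 and 7.35 in Thy-6C3-CD105- and 7.06, 7.19 and 7.06 in Thy-6C3-CD105+ cells. In Thy+6C3-CD105- cells it read 6.20, 5.92 and 5.70, where it was not above background on every array, and in Thy+6C3-CD105+ cells 6.45, 6.16 and 6.12. The groups did not overlap in either step. Tnfsf9 fell by 1.09 ± 0.22 in the Thy step of CD105- cells (adjusted p = 0.00298), a call kept in every alternative that tested it. Within the high poly-A control set that step was not run, since only replicate 1 of Thy-6C3-CD105- belongs to it. Among CD105+ cells it fell by 0.86 ± 0.22 (adjusted p = 0.0205), a call lost in 5 of 18 fits that left out 1 array and within the high poly-A control set, where the change was -0.92 (adjusted p = 0.159).

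Cxcl1 and Cxcl2, which attract neutrophils through Cxcr2, and Cxcl10, an interferon-inducible ligand of Cxcr3, differed more between replicates than most members. Their promoters are shown because in 5 of the 6 populations the 3 genes were lowest on the same array, a choice made after their values were seen. Each sequence covers the 250 bases before the transcription start, from RefSeq annotation of GRCm38.p6, with capitals for the kappaB motif, searched as GGG, any 3 bases, then TTCC, on both strands with overlapping matches counted. Cxcl1 lies at chr5:90890995-90891244 on the plus strand, Cxcl2 at chr5:90903649-90903898 on the plus strand and Cxcl10 at chr5:92348890-92349139 on the minus strand.
Cxcl1: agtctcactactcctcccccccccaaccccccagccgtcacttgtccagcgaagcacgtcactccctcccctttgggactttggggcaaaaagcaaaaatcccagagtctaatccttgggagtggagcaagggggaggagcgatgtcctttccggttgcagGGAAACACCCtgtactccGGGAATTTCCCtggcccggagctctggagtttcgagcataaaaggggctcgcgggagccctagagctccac
Cxcl2: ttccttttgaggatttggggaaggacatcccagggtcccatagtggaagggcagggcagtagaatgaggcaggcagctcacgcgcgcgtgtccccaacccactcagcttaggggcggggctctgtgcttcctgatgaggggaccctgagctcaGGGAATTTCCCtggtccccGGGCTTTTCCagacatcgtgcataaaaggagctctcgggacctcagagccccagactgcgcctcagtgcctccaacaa
Cxcl10: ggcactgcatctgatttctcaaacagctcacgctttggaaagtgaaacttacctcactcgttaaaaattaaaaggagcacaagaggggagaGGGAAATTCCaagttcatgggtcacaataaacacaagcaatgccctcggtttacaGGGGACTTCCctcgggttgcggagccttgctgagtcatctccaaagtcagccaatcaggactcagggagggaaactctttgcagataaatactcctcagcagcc

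In Cxcl1 the matches began at -89, -71 and -70 relative to the start, in Cxcl2 at -97, -96 and -78, and in Cxcl10 at -159 and -104. The pairs of starts 1 base apart are overlapping matches on opposite strands. The Cxcl10 window also held the interferon-response motif, GAAA, any 2 bases and GAAA again, at -213 and the AP-1 motif TGANTCA at -74. The kappaB motif was in 4.65% of 32851 RefSeq promoter windows of this length and in those of 10 of the 49 members that could be matched. These were Ccl1, Ccl9, Ccl20, Cxcl1, Cxcl2, Cxcl3, Cxcl10, Il6, Il9 and Il16. The interferon-response motif was in 2.98% of windows and in those of 4 members, and the AP-1 motif in 6.75% and in those of 11 members. The percentages count single windows, whereas a member counted when any of its windows matched, and the 49 members had 59 windows. Percentages and member counts are thus not in the same unit. A match describes the letters only. Cxcl1 and Cxcl2 are next to each other in the genome, whereas Cxcl10 is elsewhere on that chromosome, beside Art3.

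Cxcl10 read 8.44, 6.73 and 11.53 in Thy-6C3-CD105- cells and 10.61, 7.02 and 9.57 in Thy-6C3-CD105+ cells. Thy+6C3-CD105- cells read 5.60, 5.60 and 5.90, Thy+6C3-CD105+ cells 5.93, 6.51 and 6.59, and the 6C3+ arrays 5.54 to 7.88. Every Thy-6C3- array was above every Thy+ array, yet replicates 2 and 3 of Thy-6C3-CD105- lay far apart. Cxcl10 fell by 3.20 ± 0.96 in the Thy step of CD105- cells (adjusted p = 0.0299), while the step of -2.72 ± 0.96 among CD105+ cells did not pass (adjusted p = 0.117). The call was lost without replicate 1 or 3 of Thy-6C3-CD105- or replicate 2 or 3 of Thy+6C3-CD105-. Without replicate 3 of Thy-6C3-CD105-, the highest array, the change was -1.89.

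Cxcl2 read 8.64, 5.87 and 9.68 in Thy-6C3-CD105- cells, 9.04, 6.33 and 8.88 in Thy-6C3-CD105+ cells, and 4.06, 4.93 and 4.77 in Thy+6C3-CD105- cells, below background there. It read 4.35, 7.25 and 7.24 in Thy+6C3-CD105+ cells. Its step of -3.48 ± 1.21 among CD105- cells did not pass (adjusted p = 0.0542). Cxcl1 stayed above background throughout and no step of it passed. It read 10.65, 9.03 and 10.97 in Thy-6C3-CD105- and 9.60, 8.99 and 10.17 in Thy+6C3-CD105- cells, groups that overlap, with a step of -0.63 ± 0.57 (adjusted p = 0.447). A second probe set of Cxcl1 gave -2.86 ± 1.01 in that step, also without passing over all probe sets (adjusted p = 0.0654).

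In both Thy-6C3- populations replicate 2 was the lowest of the 3 arrays for Cxcl1, Cxcl2 and Cxcl10. Replicate 3 of Thy-6C3+CD105+ and replicate 1 of Thy-6C3+CD105- were likewise the lowest of their populations for all 3 genes, as was replicate 1 of Thy+6C3-CD105+ at 8.90, 4.35 and 5.93. In Thy+6C3-CD105- cells the 3 genes did not share a lowest array, with Cxcl1 lowest on replicate 2 and Cxcl2 on replicate 1. The 5 shared lowest arrays were all in the low poly-A control set, with control means, in the order named, of 4.92, 5.06, 4.96, 5.58 and 4.65 against 6.82 to 8.56 in the high set. Replicate 3 of Thy-6C3-CD105- was in the low set too, at 3.97, and had the highest Cxcl10 of its population. The part of the poly-A controls' level in these values was not tested. The 19 immediate early genes, most of them encoding transcription factors, are induced within minutes of a stimulus. Their mean was 11.36, 10.72 and 11.64 in Thy-6C3-CD105- cells and 11.46, 10.87 and 11.50 in Thy-6C3-CD105+ cells, so it too was lowest on replicate 2. The mean was lowest on the same array as the chemokines in the other 3 populations that shared one. It was 9.28 to 9.59 in Thy+6C3-CD105- cells, 9.69 to 10.04 in Thy+6C3-CD105+ cells and 9.87 to 10.80 in the 6C3+ populations. The mean of 21 NF-kappaB response genes was 8.52, 7.96 and 9.06 in Thy-6C3-CD105- cells and 8.67, 8.13 and 8.62 in Thy-6C3-CD105+ cells. Thy-6C3+CD105+ cells read 8.05, 8.11 and 7.58 and Thy-6C3+CD105- cells 7.60, 7.85 and 7.74, each lowest on the shared array. In Thy+6C3-CD105+ cells the list did not follow the chemokines. Its mean there was 7.92, 7.91 and 7.88, highest on replicate 1, where the 3 chemokines were lowest. Thy+6C3-CD105- cells read 7.78, 7.49 and 7.31. The part of these stimulus-responsive genes in the chemokine results was not tested.

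**Figure D3:**
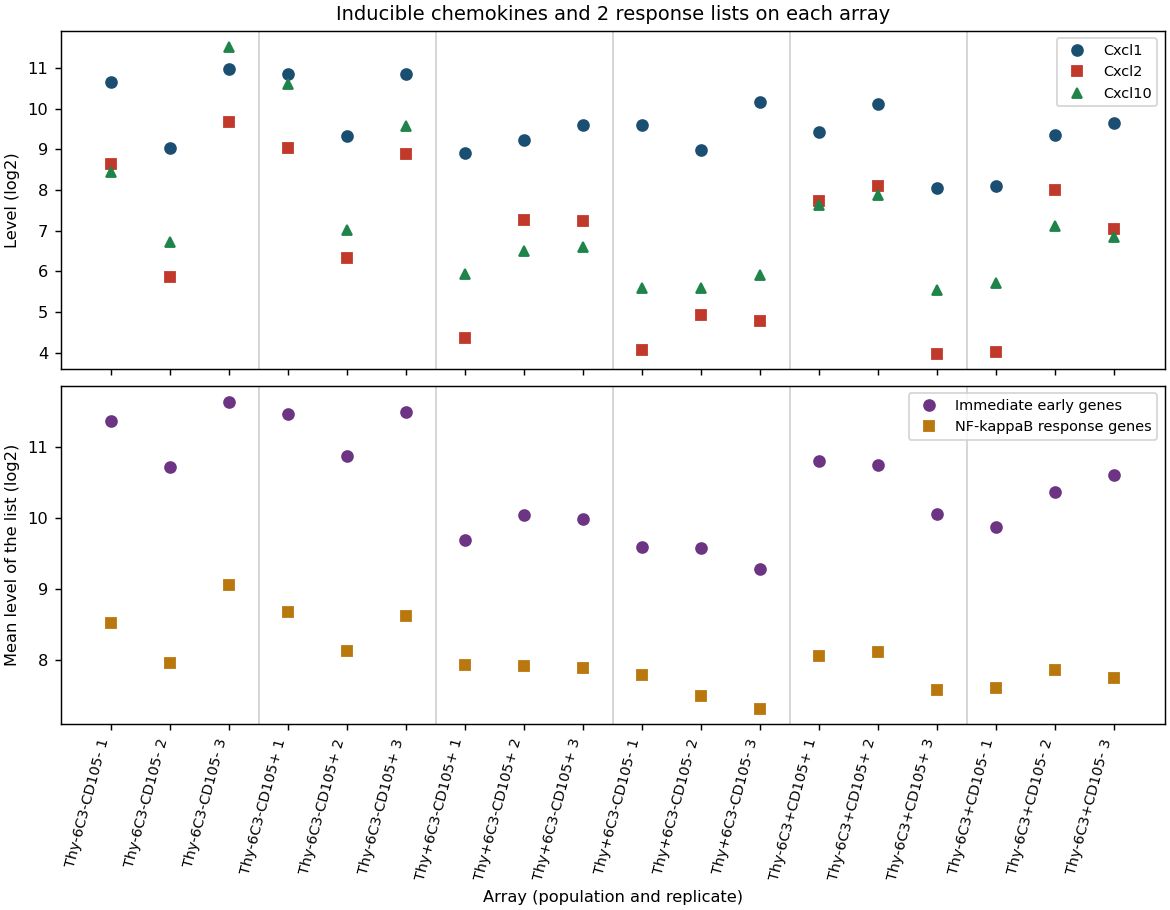
Upper panel, level (log2) of Cxcl1, Cxcl2 and Cxcl10 on each of the 18 neonatal arrays; lower panel, mean level (log2) of the 19 immediate early genes and of the 21 NF-kappaB response genes on the same arrays, with grey lines separating populations. Replicate 2 is lowest in both Thy-6C3- populations in both panels, as with Cxcl10 at 6.73 and 7.02.

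Among NF-kappaB response genes 9 of 21 fell and 1 rose in the Thy step among CD105- cells, and 5 fell and 1 rose among CD105+ cells. Of all genes 7.45% fell and 10.5% rose in the CD105- step, and 2.63% fell and 4.03% rose in the CD105+ step. Without replicate 3 of Thy+6C3-CD105- 5 fell and 1 rose in the CD105- step, against 4.53% and 5.18% of all genes. Nfkbiz, a nuclear cofactor of NF-kappaB, fell by 4.13 ± 0.62 in the CD105- step (adjusted p = 0.000244), and Tnfaip3, a feedback inhibitor, fell by 2.74 ± 0.41. Vcam1, an adhesion molecule, was the gene that rose in both steps, by 1.93 ± 0.19 among CD105+ and 0.66 ± 0.19 among CD105- cells. Of the immediate early genes 15 of 19 fell in the CD105- step and 9 in the CD105+ step, and none rose. Of the interferon response genes 5 of 15 rose and none fell in the CD105- step, where 10.5% of all genes rose, and 2 rose without replicate 3 of Thy+6C3-CD105-. In the CD105+ step 4 rose and 1 fell. Gbp2, an interferon-induced GTPase, rose by 2.49 ± 0.31 in the CD105+ step, and Irf1, an interferon-induced transcription factor, fell by 1.62 ± 0.40 there.

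Ccl11, the eotaxin that attracts eosinophils, was, besides Il33, the member that passed with a rise of more than 1 unit in a step. Thy+6C3-CD105+ cells read 5.02, 6.97 and 6.52 and Thy-6C3-CD105+ cells 4.39, 4.23 and 3.98. The latter were below background on all arrays, as was the lowest Thy+ array. In the other populations Ccl11 lay between 4.09 and 5.46, apart from 6.38 on Thy-6C3+CD105- replicate 1. The rise of 1.97 ± 0.39 (adjusted p = 0.00306) was kept in every alternative that held Ccl11. The fit of genes above background left Ccl11 out. The Thy step among CD105- cells was 0.63 ± 0.39 (adjusted p = 0.249). The difference between these steps, 1.34 ± 0.55, did not pass (adjusted p = 0.256).

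Ccl5, Cxcl16, Cxcl17 and Il1b were higher in Thy+6C3-CD105- cells in the Thy step among CD105- cells, and each of these calls was lost without replicate 3 of that population. Ccl5, a chemokine for T cells and monocytes, read 6.97, 6.72 and 7.57 in Thy+6C3-CD105- cells against 6.07, 6.21 and 6.20 in Thy-6C3-CD105- cells, a rise of 0.93 ± 0.23 (adjusted p = 0.0115). Without replicate 3 the change was 0.69 (adjusted p = 0.0573). Cxcl16, a membrane-bound ligand of Cxcr6, read 7.84, 7.60 and 8.75 against 7.03, 7.22 and 7.04, a rise of 0.97 ± 0.29 (adjusted p = 0.0323) that became 0.62 without that array (adjusted p = 0.16). Its second probe set gave 0.35 ± 0.28. Cxcl17, a mucosal chemokine, read 7.22, 7.24 and 7.79 against 6.28, 6.70 and 6.36, a rise of 0.97 ± 0.27 (adjusted p = 0.0202) that became 0.78 (adjusted p = 0.0897). Il1b, a cytokine made mainly by myeloid cells, read 5.90, 6.17 and 6.37 against 5.34, 5.53 and 5.46, the latter all below background, a rise of 0.70 ± 0.21 (adjusted p = 0.0294) that became 0.59 (adjusted p = 0.114). Cxcl16, Cxcl17 and Il1b were also no longer called without replicate 1 or 3 of Thy-6C3-CD105-, Cxcl16 without replicate 2 of that population, and Il1b without replicate 2 of Thy+6C3-CD105-. In all 4 genes the groups did not overlap, and replicate 3 was the highest Thy+6C3-CD105- array.

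Some markers of blood and skin cells passed in the same step, in which 10.5% of all genes rose. In the myeloid list 3 of 16 genes rose and none fell, and its array mean was 5.64 to 6.00 in Thy+6C3-CD105- against 5.29 to 5.46 in Thy-6C3-CD105- cells. Laptm5, a lysosomal protein of blood cells, read 9.48, 7.73 and 8.99 against 6.42, 6.63 and 6.27. The defining gene Ptprc, which encodes CD45, was below background on all 18 arrays at 3.83 to 5.23, and Itgam at 3.65 to 4.25. In the lymphoid list 2 of 8 rose, at array means of 5.13 to 5.66 against 4.84 to 5.02, and in the mast and granulocyte list 2 of 10 rose, at 5.23 to 5.41 against 4.79 to 5.21. Without replicate 3 of Thy+6C3-CD105-, where 5.18% of all genes rose, the myeloid count was 1 (Laptm5) and the other 2 were 0. In the keratinocyte list 4 of 12 genes rose, with and without that array, at array means of 5.90 to 6.36 against 5.21 to 5.26. Its gene Krt5, a basal keratin, read 8.31, 8.97 and 9.25 in Thy+6C3-CD105- cells and at most 7.23 on any other neonatal array. The part of these cells in the results for Ccl5, Cxcl16, Cxcl17 and Il1b was not tested.

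**Figure D4:**
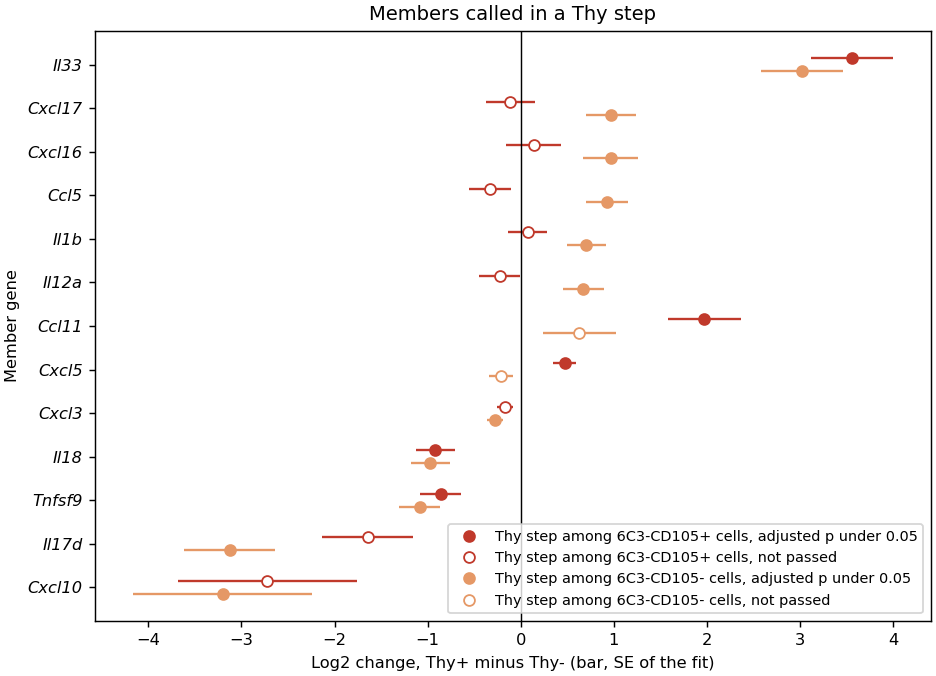
Log2 change (Thy+ minus Thy-; bars, SE of the fit) of the 13 members that passed in at least 1 Thy step, in the step among 6C3-CD105+ cells (red) and among 6C3-CD105- cells (orange); filled points passed at an adjusted p under 0.05. Il33, Il18 and Tnfsf9 are filled in both steps, and Ccl5, Cxcl16, Cxcl17 and Il1b in the CD105- step alone.

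In the Thy step among 6C3-CD105- cells 11 members passed, 6 higher and 5 lower (16.2% of members), against 18% of all genes in either direction, 10.5% higher and 7.45% lower. The median change of the members was 0.17 and that of all genes 0.13. Arrays did not overlap for 16 members in the higher direction (23.5%, against 23% of all genes) and 7 in the lower (10.3%, against 11.7%). Beside those described, Il12a and Cxcl3 passed with levels below background in all populations, at +0.67 ± 0.22 (adjusted p = 0.0421) and -0.28 ± 0.09 (adjusted p = 0.0402). Neither passed without replicate 3 of Thy+6C3-CD105- (adjusted p = 0.0808 and 0.141). The count was 4 without that array, where 9.71% of all genes passed, and 5 without replicate 1 or 3 of Thy-6C3-CD105-. For the latter fits the share of all genes is not given here.

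In the Thy step among 6C3-CD105+ cells 5 members passed, 3 higher and 2 lower (7.35% of members), against 6.66% of all genes in either direction, 4.03% higher and 2.63% lower. Arrays did not overlap for 6 members in the higher direction (8.82%, against 14.4% of all genes) and 10 in the lower (14.7%, against 11.8%). The median change was -0.0043 for the members and -0.018 for all genes. Cxcl5, a neutrophil chemokine, was the fifth, at 3.55, 3.76 and 4.06 against 3.51, 3.19 and 3.26, a rise of 0.47 ± 0.12 (adjusted p = 0.0253) with all values below background. Within the high poly-A control set that rise was 0.53 (adjusted p = 0.0651). The count was 2 without replicate 3 of Thy+6C3-CD105+ and 3 without replicate 1 or 3 of Thy-6C3-CD105+, and 9 with array weights. The share of all genes in these fits is not given here. The Thy steps of CD105+ and CD105- cells use different arrays but 1 estimate of the spread. No member passed the limma test of the difference between them, against 0.269% of all genes. At an unadjusted p under 0.05 there were 11 members, and the share of all genes at that level was not computed. With array weights 3 members passed the test of the difference, as did 645 of all genes.

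The 6C3 and CD105 steps share populations with the Thy steps and held few calls. In the 6C3 step among Thy-CD105- cells 2 members passed, Il33 and Il18 (2.94%, against 2.74% of all genes). Among Thy-CD105+ cells none passed in limma, against 1.36% of all genes. With array weights 1 did, and the share of all genes in that fit is not given here. In the CD105 step among Thy+6C3- cells 2 members passed (2.94%), against 1.02% of all genes. These were Ccl5, with a change of -0.98 ± 0.23 (adjusted p = 0.0484), and Cxcl5, which rose by 0.58 ± 0.12 (adjusted p = 0.0318) below background. Thy+6C3-CD105+ cells read 6.29, 5.97 and 6.06 for Ccl5, below all Thy+6C3-CD105- arrays, and the change was -0.74 without replicate 3 of Thy+6C3-CD105- (adjusted p = 0.239). The Ccl5 call was lost in 14 of 18 fits that left out 1 array. No member passed this step without replicate 2 or 3 of Thy+6C3-CD105+ or replicate 3 of Thy+6C3-CD105-. Without replicate 1 of Thy+6C3-CD105- 5 passed. Of all genes 0.506% passed without replicate 3 of Thy+6C3-CD105-, and the share in the other fits is not given here. With array weights 11 members passed this step, as did 2567 of all genes. Within the high poly-A control set neither Ccl5 nor Cxcl5 passed (adjusted p = 0.177 and 0.0878). In the CD105 steps among Thy-6C3- and Thy-6C3+ cells none passed, against 0.0055% and 0% of all genes. None passed the difference of the 6C3 steps either, against 0% of all genes. At an unadjusted p under 0.05 there were 4 members in the 6C3 step among Thy-CD105+ cells. There were 2 and 4 in the CD105 steps among Thy-6C3- and Thy-6C3+ cells, and 3 in the difference of the 6C3 steps. The shares of all genes at that unadjusted level were not computed.

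Other members above background everywhere did not pass in any step. Cxcl14, a chemokine of epithelial and stromal cells, read 10.76, 10.34 and 10.28 in Thy+6C3-CD105+ cells against 9.34, 9.62 and 9.02 in Thy-6C3-CD105+ cells. These groups did not overlap, but the step of 1.14 ± 0.54 did not pass (adjusted p = 0.304). Its second probe set rose by 1.15 ± 0.33 in the Thy step of CD105- cells (adjusted p = 0.0276 over all probe sets), where the first gave 0.83 ± 0.54. Il16, a precursor cleaved to a chemoattractant for CD4+ cells, lay between 7.55 and 8.31 on all neonatal arrays. Cx3cl1 lay between 6.15 and 7.56, with a Thy step of 0.12 ± 0.26 among CD105- cells, whereas another of its 4 probe sets fell by 1.11 ± 0.24 in that step (adjusted p = 0.00643 over all probe sets). Il17b ranged from 5.87 to 7.56, Il9 from 5.86 to 7.93 and Ccl24 from 6.09 to 7.81. The highest array of Il9, Ccl24 and Cx3cl1 was Thy+6C3-CD105- replicate 3.

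Bone-related ligands below background gave no call. Tnfsf11 read 4.88, 5.41 and 5.79 in Thy+6C3-CD105+ cells and 5.05, 4.16 and 3.73 in Thy+6C3-CD105- cells, a CD105 step of 1.05 ± 0.34 (adjusted p = 0.128). Its decoy receptor Tnfrsf11b, osteoprotegerin, was measured well above background in Thy-6C3-CD105- cells at 8.60, 7.62 and 7.64 and below it in Thy+6C3-CD105- cells at 4.02, 4.01 and 2.97. That Thy step was -4.29 ± 0.86 (adjusted p = 0.00296). Il34 was 0.78 ± 0.27 higher in the Thy step among CD105+ cells without passing (adjusted p = 0.117). Il11 and Il6 had Thy steps among CD105- cells of -0.84 ± 0.34 and -1.04 ± 0.45 (adjusted p = 0.0884 and 0.111).

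Of 72 receptor genes for these ligands, 35 were above background in at least 1 population. In the Thy step among CD105- cells 11 rose and 2 fell, where 10.5% of all genes rose and 7.45% fell, and the median change was 0.25 against 0.13 over all genes. Without replicate 3 of Thy+6C3-CD105- 4 rose and 1 fell, against 5.18% and 4.53% of all genes. In the CD105+ step 3 rose and 1 fell, against 4.03% and 2.63% of all genes. Without that array 6 rose and 1 fell in the CD105+ step, against 5.45% and 3.47% of all genes. Il17rd, a receptor of the interleukin 17 family that also restrains FGF signalling, rose in both steps, by 1.5 ± 0.34 among CD105- and 2.12 ± 0.34 among CD105+ cells (adjusted p = 0.0063 and 0.000449). It read 8.42, 8.54 and 8.95 in Thy+6C3-CD105+ against 6.89, 6.55 and 6.09 in Thy-6C3-CD105+ cells. Il1r1, the signalling receptor of interleukin 1, rose by 0.96 ± 0.24 among CD105- cells, and Osmr, the oncostatin M receptor subunit, fell by 1.42 ± 0.41 there, a call lost without that array (adjusted p = 0.133). Receptors found on leukocytes also rose among CD105- cells, Csf1r by 1.21 ± 0.35, Ccr2 by 0.80 ± 0.25 and Ccr7 by 0.78 ± 0.22 (adjusted p = 0.024, 0.0366 and 0.0226), and all 3 calls were lost without that array (adjusted p = 0.0753, 0.0905 and 0.0883). Receptors of the CXC ligands and of Il18 included Cxcr2 at 4.59 to 5.68, Cxcr6 at 3.67 to 4.47 and Il18r1 at 3.34 to 4.10 over the 18 arrays. Ccr10 rose by 0.98 ± 0.21 in the Thy step of CD105- cells and fell by 0.94 ± 0.21 in the CD105 step among Thy+6C3- cells. Without replicate 3 of Thy+6C3-CD105- the rise was 0.80 (adjusted p = 0.0245) and the other change -0.76 (adjusted p = 0.205).

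In the 6C3 steps the 1 receptor gene that passed was Ackr2, a scavenger that removes inflammatory CC chemokines, in both. It read 8.24, 8.81 and 8.56 in Thy-6C3+CD105+ cells against 7.58, 7.10 and 6.86 in Thy-6C3-CD105+ cells, a rise of 1.36 ± 0.29 (adjusted p = 0.0204). Thy-6C3+CD105- cells read 8.61, 7.32 and 8.18 against 6.75, 6.69 and 6.99 in Thy-6C3-CD105- cells, a rise of 1.22 ± 0.29 (adjusted p = 0.025). Without replicates 2 and 3 of Thy-6C3+CD105- the rise was 1.79, with only replicate 1 left in that population. The groups did not overlap in either step. No receptor gene passed in the CD105 steps among Thy-6C3- and Thy-6C3+ cells.

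A list of ligands with other kinds of names also named Cxcl12 and Il7, which the rule left out, and the inhibitors Il1rn and Il18bp. Of its 26 measured genes 13 were above background in at least 1 population. In the Thy steps 2 rose among CD105+ cells, 4 rose among CD105- cells, and none fell. Of all genes 4.03% rose and 2.63% fell in the first of these steps, and 10.5% and 7.45% in the other. Kitl, stem cell factor, read 9.58, 9.13 and 9.13 in Thy+6C3-CD105+ against 7.02, 7.57 and 4.93 in Thy-6C3-CD105+ cells, a rise of 2.77 ± 0.64 (adjusted p = 0.0105). Cxcl12, the chemokine that retains blood stem cells in marrow, rose by 2.39 ± 0.27 and 1.28 ± 0.27 in the CD105+ and CD105- steps. Pf4, Csf2 and Ifnb1 passed in the CD105- step, at 1.12 ± 0.34, 0.76 ± 0.24 and 0.93 ± 0.28, and not without replicate 3 of Thy+6C3-CD105- (adjusted p = 0.145, 0.0553 and 0.108).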

How the data were processed

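Gene expression was measured on Affymetrix mouse arrays, and per the labels' protocols the RNA passed through repeated amplification before hybridisation and the scans were read with GCOS. The deposited table holds log2 expression levels for 45101 probe sets. The normalization behind them was not given in the sources used here. Arrays whose medians differed by more than 0.1 were quantile normalized over all 19, as was the case here. Of the probe sets, 34945 had 1 symbol in the platform annotation, 932 several and 9160 none, and 64 were controls. Probe sets with several symbols were left out, among them those of Ccl19, Ccl21, Il22 and Tnfsf12.

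The model (limma 3.58.1 under R 4.3.3) held 6 population means over 18 arrays (12 residual and 5.38 prior degrees of freedom), eBayes with a trend, 7 steps, 2 differences of steps and a moderated F-test. Tests were two-sided at an adjusted p under 0.05. The fit was tested on simulated data. The labels do not say whether replicates came from separate litters, so p-values measure the spread between these samples, which may be technical.

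Values are given for members that passed the F-test or a step and were above background, and for a fixed set of bone, stromal and leukocyte ligands. Cxcl2, Cxcl3, Il9, Il12a, Il17b, Il20 and Ccl24 fall outside this rule and were named after their values were seen. Members, gene lists and tests were chosen with earlier results of these data known. Receptor and response lists were written from general knowledge. Alternatives changed the scaling, background, probe sets, genes and arrays in the fit, array weights, a replicate block, the grouping by title and the level of poly-A control probe sets, which split the arrays into 11 high and 7 low. Refitting the gene lists without the 3 arrays of doubtful label was chosen after seeing the data. Promoters came from RefSeq for GRCm38.p6 and gave 59 windows for 49 members. Tables and figures used pandas 2.3.3, numpy 2.4.6 and matplotlib 3.10.9 (Python 3.11.15).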

Additional observations from a re-analysis of the deposited data

Results flagged for a closer look

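On the single adult array 4 members lay above background (5.96 there) and more than 0.5 units above every neonatal array, in data that no comparison used. Il18 read 9.70 against at most 7.45 on a neonatal array. Il17d read 9.53 against at most 8.78, Il6 read 7.47 against at most 5.96, and Ccl27a read 6.45 against at most 5.91. Its age and its Thy+6C3+CD105+ gate differ from the neonatal arrays and cannot be told apart with 1 array. Its labels disagree on the tissue, with sternum and ear in the source field and limbs in the tissue field, so whether the tissue differs is not known.

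The CD105 steps of Ccl5 ran in opposite directions on all arrays, at 0.28 ± 0.23 among Thy-6C3- cells and -0.98 ± 0.23 among Thy+6C3- cells. The test of this difference gave -1.26 ± 0.32 and did not pass over all genes (limma adjusted p = 0.132). Among 5 pairs of steps examined this way over all 68 members, no other pair ran in opposite directions on all arrays.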

How the results depend on the processing

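Of 20 calls of a member in a step, 5 held in every alternative that tested them. These were Il33 in both Thy steps, Ccl11 in the Thy step among CD105+ cells, and Il17d and Tnfsf9 in that among CD105- cells. Ccl11 was not in the fit of genes above background. Of the 20 calls, 14 were lost in at least 1 fit without an array, 15 in at least 1 other setting, and 0 reversed. Leaving out each array in turn gave 5 to 11 members in the F-test (7 with all arrays), 2 to 6 and 4 to 15 in the Thy steps among CD105+ and CD105- cells, 1 to 2 in the 6C3 step among CD105- cells and 0 to 5 in the CD105 step among Thy+6C3- cells. The 6C3 step among CD105- cells and the CD105 step among Thy+6C3- cells, each with 2 members, gave 1 and 1 with the values as deposited and with any probe set of a gene (chosen after seeing the data). The first gave 1 with the replicate block. With groups from the titles it had only replicate 1 in Thy-6C3+CD105-, so no count is given for it. The other gave 1 with a common median only, with genes above background only, within the high poly-A control set and with groups from the titles. With only the compared populations in the fit the Thy step among CD105- cells gave 4, the 6C3 step among CD105- cells 1 and the CD105 step among Thy+6C3- cells 0. Array weights gave 15 in the F-test, 9 in the Thy step among CD105+ cells, 1 in the 6C3 step among CD105+ cells, 11 in the CD105 step among Thy+6C3- cells and 3 for the difference of the Thy steps. With the poly-A control set in the fit the F-test gave 11, and within the high set the 6C3 step among CD105+ cells gave 1. Within the low set no step kept 2 arrays in both groups, so it was not run. The high set held only replicate 1 of Thy-6C3-CD105-, so the steps with that population were not run there. The calls of Il33, Il17d, Il18 and Tnfsf9 in the Thy step among CD105- cells were thus not tested within it. Without the 2 arrays with the highest medians (chosen after seeing the data) the Thy step among CD105- cells gave 6 and the CD105 step among Thy+6C3- cells 0. The count above background was 15 with the 99th percentile and 12 with the median gene. The causes were not tested. Shares of all genes are not set beside the counts in this paragraph. A count alone thus does not tell whether the members moved apart from all genes. Replicate numbers are in the labels, and whether they pair the arrays is not settled here. Correlations between arrays of the same number, after taking off the population means, ran from -0.56 to 0.67. Of 18 arrays 8 correlated best with their own number, which cannot decide the question. The replicate block moved no other count by over 1.5 times. Signals near background and 3 arrays per population limit what can be seen of weakly expressed ligands.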
